A study of Mus musculus with 6 samples.

Results

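Lin28b, Hmga1, Hmga2, Igf2bp1, Igf2bp2 and Igf2bp3 are genes of early development that are known or proposed to be targets of the let-7 microRNAs. Their transcripts were followed in the retina of C57BL/6J mice at 3 embryonic stages (E13.5, E15.5 and E18.5) and 3 postnatal stages (P0, P6 and P21). The libraries were made by PA-seq, an assay in which an oligo(dT) primer captures the 3′ end of polyadenylated RNA, so that each tag marks a poly(A) site. Every stage had 1 sample, with no treatment or genotype other than the strain given, and the deposited table held 2 count columns per stage. Poly(A) sites were taken for a gene where their 3′ edge lay in the gene or up to 1000 bases downstream of it on the same strand. This gave 11 sites for the 6 genes, of 32688 sites and 14503 nuclear genes with a site in all. No site in the deposited table had fewer than 41 tags over all count columns. The genes were chosen by their CPM values, which were known to decline from E13.5 to P21 in these samples, so their levels are a description and carry no test. The retina is a mixed tissue, and fewer cells of a type and less RNA per cell cannot be told apart.

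LIN28 and let-7 belong to a pathway that times development in animals from worms to mammals. LIN28 proteins bind the precursors of let-7 microRNAs and block their maturation. Mature let-7 pairs through its seed with sites in the 3′ UTRs of its targets and lowers their output. The transcripts of Lin28b itself, of Hmga2, which encodes an architectural chromatin protein, and of Igf2bp1, which encodes an RNA-binding protein, are known let-7 targets. In the mouse retina, let-7 and Lin28b are known to act on the order in which progenitors make early and late cell types.

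The let-7 family is shown first because its seed is the sequence to which the 3′ UTRs were compared. In the RefSeq annotation of GRCm38.p6, 12 loci gave 10 distinct mature sequences with the same seed at bases 2 to 8, which the capitals mark in these examples.
mmu-let-7a-5p: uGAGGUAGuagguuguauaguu
mmu-let-7d-5p: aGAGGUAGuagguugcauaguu
mmu-miR-98-5p: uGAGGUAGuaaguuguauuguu

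The reverse complement of this seed, CTACCTC, was searched on the transcript strand in the longest annotated 3′ UTR of each gene (GENCODE M21, mm10). All 6 genes held it. Lin28b, Hmga2 and Igf2bp1 held 4 matches each, and Hmga1, Igf2bp2 and Igf2bp3 held 1 each. The match nearest to the stop codon of each gene is shown with the 22 bases before it and the base after it, with the match in capitals. A final A, which favours let-7 binding, follows the match in each gene shown here except Hmga1.
Lin28b: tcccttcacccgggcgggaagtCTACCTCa
Hmga1: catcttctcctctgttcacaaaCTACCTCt
Hmga2: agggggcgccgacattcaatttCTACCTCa
Igf2bp1: aggcagtgctgtgcgaagtaaaCTACCTCa
Igf2bp2: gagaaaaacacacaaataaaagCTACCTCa
Igf2bp3: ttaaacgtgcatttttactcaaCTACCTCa

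Long 3′ UTRs hold such a match more often, so each gene was set beside the 3′ UTRs of all genes that are at least as long, searched over the same number of bases. At least 4 matches were found in 0.274% of 1094 such 3′ UTRs over the 4445 bases of Lin28b. The share was 0.0720% of 2779 over the 3014 bases of Hmga2 and 0.266% of 376 over the 6337 bases of Igf2bp1. At least 1 match was found in 7.502% over the 1183 bases of Hmga1, in 10.7% over the 1784 bases of Igf2bp2 and in 12.6% over the 2119 bases of Igf2bp3. Each set includes the gene itself, so the shares for 4 matches count that gene in part or in whole. The genes with 4 matches therefore stood in a class with few or no other 3′ UTRs, and the genes with 1 match did not. Over all 21021 3′ UTRs, 9.02% held at least 1 match and 0.152% at least 3. A match is a description of the sequence and not a measured binding site.

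**Figure D1:**
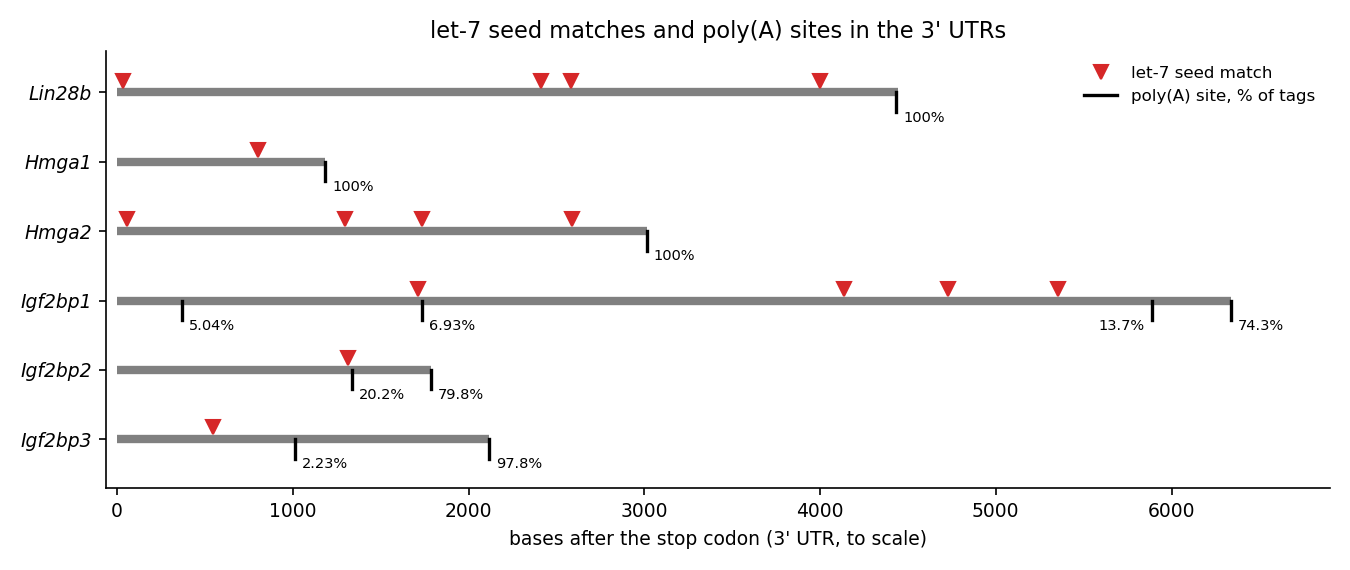
Map of the annotated 3′ UTRs of the 6 genes, to scale in bases after the stop codon (x axis), with let-7 seed matches as triangles and poly(A) sites as ticks labelled with the percentage of the gene's tags over all stages. Lin28b, Hmga1 and Hmga2 have 1 site each at the end of the 3′ UTR, and Igf2bp1 has 4 sites, of which the last took 74.3% of tags.

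The libraries held 3286158 tags (P0) to 4656153 tags (E18.5), and 3 tags corresponded to 0.654 to 0.944 tags scaled to library size (CPM). Intervals and floors below cover counting error only, since PCR copies are not independent molecules. The paired columns of a stage, called first and second here, did not always hold the same mixture of transcripts. At P21, 10 markers of dividing cells summed to 502 CPM in the first column and 68.5 CPM in the second. At E13.5, 10 rod markers summed to 1382 CPM in the first column and 80.4 CPM in the second. The first column was also the higher for rod markers at E15.5 (3292 against 88.7 CPM), E18.5 (1475 against 377) and P0 (3604 against 513). The columns were added. The P21 ratios of the 6 genes are also given by column, and the calls of the other genes were repeated in each column alone. The lens markers summed to 3176 CPM at E15.5 and 4378 CPM at P0, against 265 to 1079 CPM at the other 4 stages, which sets the libraries of E15.5 and P0 apart. Among retinal markers, the progenitor sum stood at 5349 CPM at E13.5 and the rod sum at 6315 CPM at P21. Pigment epithelium markers summed to 397 CPM at P21, against 56.9 to 206 CPM at the earlier stages.

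Lin28b, the inhibitor of let-7 maturation, lies on chromosome 10 (mm10, 45376620 to 45486395, minus strand). It had 39.99, 12.9, 6.33, 9.44, 3.20 and 4.11 CPM over the 6 stages, from 146, 49, 29, 30, 13 and 15 tags. The level at E15.5 was 32.3% of that at E13.5. The log2 ratio was -1.63 (interval -2.13 to -1.15) at E15.5 over E13.5 and -1.56 (-2.62 to -0.58) at P6 over P0. Taken by column, the later step was -0.92 (first) and -2.71 (second). At P21 Lin28b was 9.73-fold lower than at E13.5 (95% counting interval 5.71 to 17.8). The 4 tags of the first and 11 tags of the second column at P21 were 18.6-fold and 6.28-fold below the E13.5 level of the same column, with overlapping intervals. All its tags fell on 1 poly(A) site, 4434 bases after the stop codon, so that every transcript counted keeps the 4 let-7 matches.

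Hmga1 and Hmga2 encode AT-hook proteins that bend DNA and open chromatin in embryonic and stem cells. Hmga2 (chromosome 10, 120361275 to 120476469, minus strand) fell at every step, with 71.5, 36.4, 27.1, 14.5, 6.41 and 1.92 CPM over the 6 stages, from 261, 138, 124, 46, 26 and 7 tags. At P21 Hmga2 was 37.3-fold lower than at E13.5 (interval 17.8 to 93.6). Both columns gave a like ratio, with 35.7-fold (interval 11.9 to 175) from 3 tags at P21 in the first and 38.2-fold (14.6 to 142) from 4 tags in the second. Among the 6 genes, only Hmga2 had a counting interval below 0 (log2 scale) at each of the 5 steps. Its site lay 3014 bases after the stop codon, past all 4 matches.

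Hmga1 (chromosome 17, 27556497 to 27563674, plus strand) followed another course. It had 11.8, 5.81, 9.38, 11.0, 3.45 and 2.74 CPM over the 6 stages, from 43, 22, 43, 35, 14 and 10 tags. The log2 ratio was -1.02 (interval -1.83 to -0.25) at E15.5 over E13.5. At E18.5 over E15.5 it was -0.26 in the first column and 1.38 in the second. The level of Hmga1 at P0 was 93.5% of that at E13.5, and a second drop came between P0 and P6 (log2 ratio -1.67, interval -2.68 to -0.74). At P21 Hmga1 was 4.30-fold lower than at E13.5 (interval 2.13 to 9.59), and the columns gave 3.57-fold and 5.23-fold. The last 200 bases of its transcript are 100% identical to those of Hmga1b, a copy elsewhere in the annotation, so tags of the copy could not be separated and the Hmga1 values are uncertain.

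Igf2bp1, Igf2bp2 and Igf2bp3 encode related RNA-binding proteins that stabilise, localise and regulate the translation of bound mRNAs, among them that of the growth factor IGF2. Igf2bp1 (chromosome 11, 95957163 to 96005940, minus strand) had 265, 178, 101.7, 105, 16.8 and 24.7 CPM over the 6 stages, from 966, 674, 466, 334, 68 and 90 tags. The level held between E18.5 and P0, and P6 then lay below P0 by a log2 ratio of -2.65 (interval -3.05 to -2.27). The columns already differed at this step, with -2.21 in the first, from 51 tags at P6, and -3.53 in the second, from 17 tags. P21 stood above P6 (log2 ratio 0.56, interval 0.09 to 1.03), a step that 85 tags in the first column carried against 5 in the second. Within columns the log2 ratio of P21 to P6 was 0.96 in the first and -1.71 in the second. Its direction therefore depended on the column.

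Igf2bp2 (chromosome 16, 22059009 to 22163299, minus strand) had 112, 62.0, 49.1, 43.4, 12.8 and 13.7 CPM over the 6 stages, from 408, 235, 225, 138, 52 and 50 tags. It had a log2 ratio of -0.85 at E15.5 over E13.5, changed little around birth and had a log2 ratio of -1.76 at P6 over P0. Igf2bp3 (chromosome 6, 49085223 to 49214957, minus strand) had 194, 155, 98.0, 101.96, 36.5 and 18.6 CPM, from 710, 587, 449, 324, 148 and 68 tags. It kept 79.7% of its E13.5 level at E15.5, the most of the 6 genes, and P21 lay below P6 by a log2 ratio of -0.97. Within columns this last step was -0.25 in the first and -4.14 in the second.

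**Figure D2:**
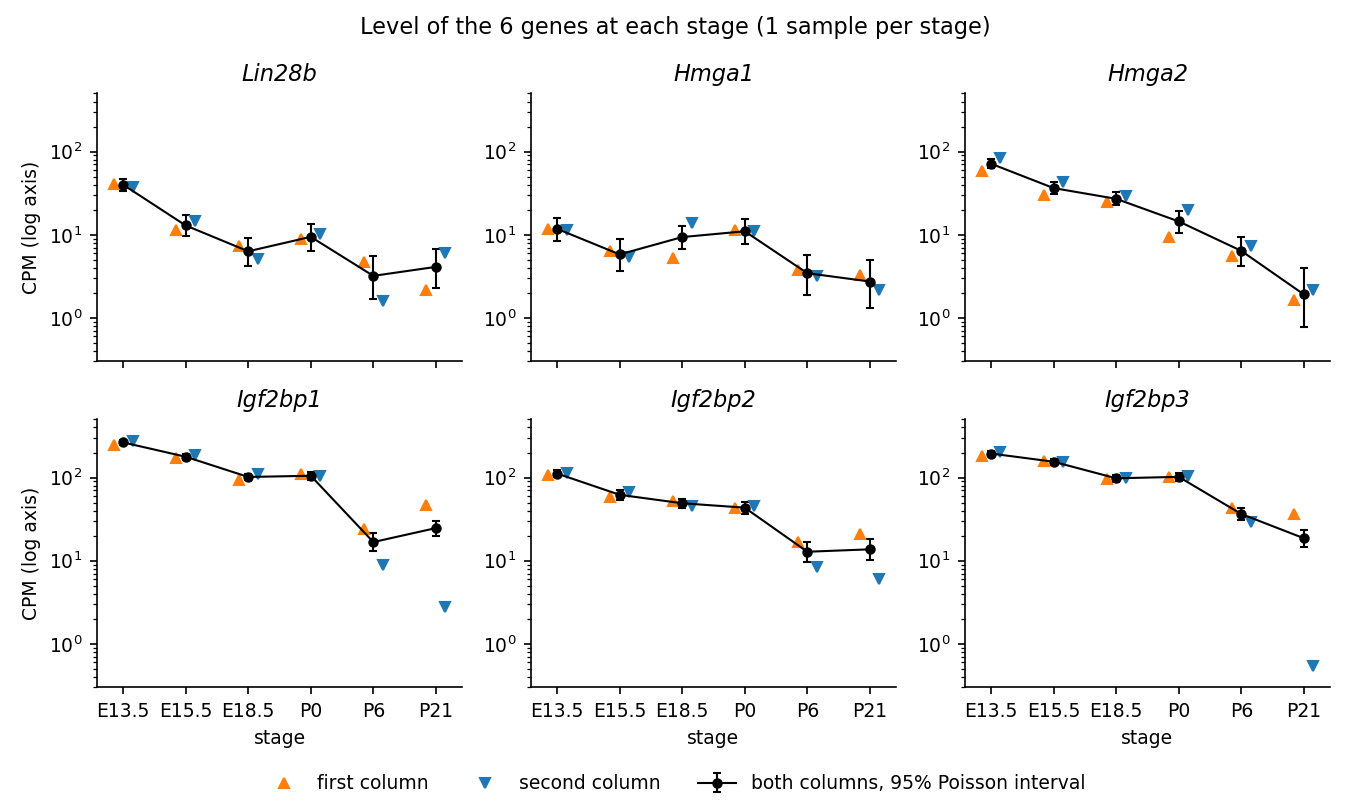
Level of each of the 6 genes (y axis, CPM, log scale) by stage (x axis), with both columns added and its 95% Poisson interval in black, the first column as orange triangles pointing up and the second as blue triangles pointing down. The columns of the 3 Igf2bp genes lie close up to P0, and at P21 the second column of Igf2bp1 and Igf2bp3 lies far below the first, at 2.74 against 46.2 CPM and at 0.548 against 36.5 CPM, the 0.548 CPM from 1 tag.

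The steps between neighbouring stages were compared by their counting intervals. Counting intervals lay below 0 for 6 of 6 genes at E15.5 over E13.5, against 20% of the 14494 genes tested, and for 5 of 6 at E18.5 over E15.5, against 14.9%. At P0 over E18.5 only Hmga2 was lower, against 21.3% of all genes, and the intervals of the other 5 genes held 0. At P6 over P0 again 6 of 6 were lower, against 25.2%. At P21 over P6, Hmga2 and Igf2bp3 were lower (21.7% of all genes), Igf2bp1 was higher (25.5%), and the intervals of Lin28b, Hmga1 and Igf2bp2 held 0. Because the genes were chosen for their decline, nothing is read from these counts about the group as such.

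Markers of dividing cells declined over the same stages. Of 10 such markers, 7 fell with stage order in edgeR's quasi-likelihood test (13.1% of all genes tested fell) and 3 did not pass, and none was at 0 at any stage. Without the P21 library 0 of them fell, without P6 1 did, without E13.5, without E15.5 or in the second columns alone 3 did, and by the DESeq2 Wald test all 10 did. Their sum stood at 2373, 1914, 1963, 2014, 384 and 287 CPM over the 6 stages, so the step from P0 to P6 is shared with all 6 genes. The sum of 12 progenitor markers, 8 of which fell, stood at 5349, 4062, 3734, 3694, 2261 and 1855 CPM. The part of these cells in the decline of the 6 genes was not tested.

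At P21 the size of the decline depended on the column for the Igf2bp genes. Igf2bp1 had 85 tags in the first column and 5 in the second at P21, and the log2 ratio of P21 to E13.5 was -2.43 (interval -2.78 to -2.09) in the first columns and -6.63 (-8.26 to -5.40) in the second. Igf2bp2 had 39 and 11 tags, with ratios of -2.33 and -4.23. Igf2bp3 had 67 tags in the first column and 1 in the second, with ratios of -2.33 and, with the 1 tag set to the floor of 3, of -6.93 (interval -9.21 to -5.37). The intervals of the 2 columns did not overlap for any of the 3 Igf2bp genes and did overlap for Lin28b, Hmga1 and Hmga2. Several marker sums were also higher in the first column at P21, with 502 against 68.5 CPM in the second for dividing cells, 1246 against 524 for lens, 2220 against 1474 for progenitors and 6959 against 5622 for rods. Other marker sums were lower in the first column, with 2083 against 2246 CPM for Mueller glia and 363 against 429 for pigment epithelium. Those of vascular cells (480 against 514) and microglia (156 against 180) were lower there as well. Lin28b also ran this way, with 4 tags in the first column against 11 in the second. The part of any of these markers in the column difference was not tested.

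**Figure D3:**
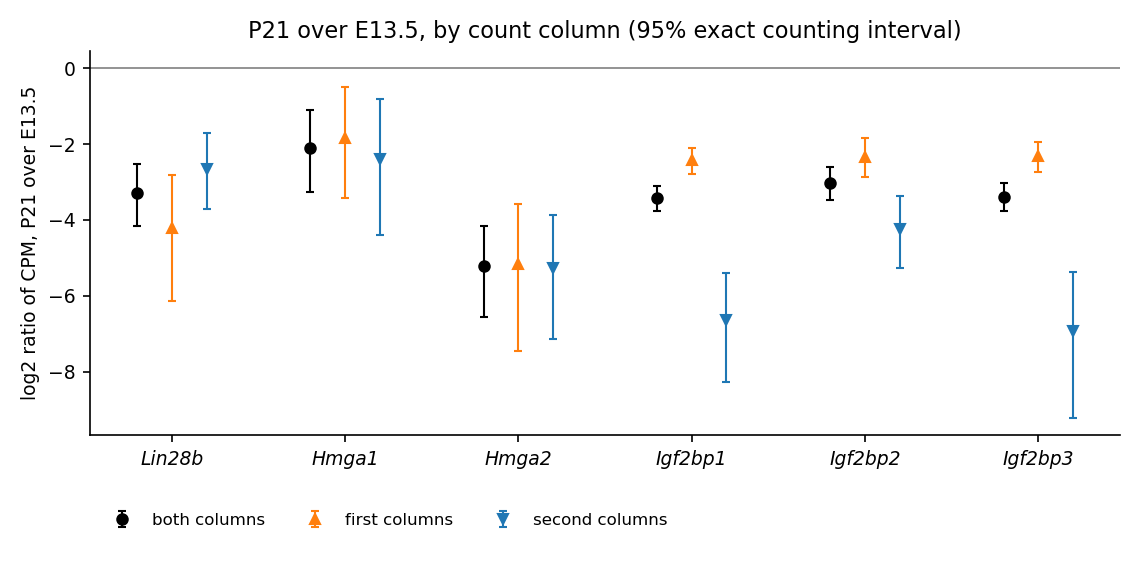
Log2 ratio of CPM at P21 over E13.5 (y axis) for the 6 genes (x axis), for both columns added (black), the first columns (orange) and the second columns (blue), with 95% exact counting intervals as bars. All 18 values lie below 0, and the first and second columns separate for Igf2bp1, Igf2bp2 and Igf2bp3.

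The choice between poly(A) sites was not used to pick the genes, and it decides which let-7 matches a transcript carries. Igf2bp1 had sites 368, 1735, 5889 and 6336 bases after the stop codon, whose transcripts keep 0, 1, 4 and 4 matches. They took 5.04%, 6.93%, 13.7% and 74.3% of its tags. The second site ended 14 bases after the first match. Igf2bp2 had sites at 1336 and 1784 bases with 20.2% and 79.8% of its tags, and the first of them ended 17 bases after the only match, which both transcripts keep. Igf2bp3 had sites at 1012 and 2119 bases with 2.23% and 97.8%, both past its match. Among the 6 genes, only Igf2bp1 therefore had deposited poly(A) sites that remove let-7 matches. Sites with fewer than 41 tags in total are absent from the table, so weaker sites of the other genes cannot be seen.

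Most Igf2bp1 tags kept all 4 matches at each stage. Tags of transcripts with 0 or 1 match made up 12.7% (95% Wilson interval 10.8 to 14.98), 12.9%, 11.8%, 11.1%, 2.94% (0.810 to 10.1) and 7.78% (3.82 to 15.2) over the 6 stages, from 123, 87, 55, 37, 2 and 7 tags. The share was steady up to P0. At P6, with 2 tags, the interval lay below those of E13.5 and E15.5 (10.6 to 15.7). It overlapped with those of E18.5 (9.18 to 15.05) and P0 (8.14 to 14.9), so a drop from P0 to P6 was not shown. The interval of P21 overlapped with that of E13.5. The shortest form had 0 of 68 tags at P6, which allows a share of up to 4.41% by the limit of 3 tags and 5.35% by the Wilson interval. In the second columns no such tag was counted at P6 (17 tags of the gene) or P21 (5 tags), too few to show a difference.

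The test of site choice compared the 2 most used sites of a gene, and the one further from the stop codon was called distal. Of 6066 genes with a pair, 127 moved with stage order in edgeR's diffSpliceDGE (2.09%), of which 94 moved towards the distal site (1.55%). Neither of the 2 pairs among the 6 genes was among them. Without the E13.5 library 0 pairs of all genes moved towards the distal site and without P21 4 did, so the count over all genes rested on those stages. At an unadjusted p under 0.05 there were 941 pairs.

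Igf2bp2 had the larger shift of the 2 pairs. Its distal share was 92.0% at P21 (46 of 50 tags, interval 81.2 to 96.8), against 73.8% at E13.5 (301 of 408 tags, interval 69.3 to 77.8). Over the 6 stages it stood at 73.8%, 74.5%, 83.6%, 92.8%, 88.5% and 92.0%, low at the first 2 stages and high from P0 on. Both columns had their lowest values at E13.5 and E15.5, and at P21 the first stood at 92.3% and the second at 90.9% (10 of 11 tags). The fitted log2 change in the ratio of distal to proximal tags was 2.36 (edgeR diffSpliceDGE, unadjusted p = 0.00644, adjusted p = 0.119 over all pairs), and it did not pass. Over the alternatives the adjusted p ran from 0.0991 to 0.440 with the change always above 0. For comparison, 62.3% of all pairs changed towards the distal site, and the median change in distal share over all pairs was 2.48 percentage points.

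For Igf2bp1 the pair was made of the sites at 5889 and 6336 bases, which both keep 4 matches. Its distal share was 89.2% at P21 (interval 80.7 to 94.2), against 84.1% at E13.5 (81.5 to 86.4), with overlapping intervals. The fitted log2 change was 0.93 (edgeR diffSpliceDGE, adjusted p = 0.777) and did not pass. Igf2bp3 had no second site with at least 5% of its tags, and Lin28b, Hmga1 and Hmga2 had 1 site each, so site choice was not tested in them.

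**Figure D4:**
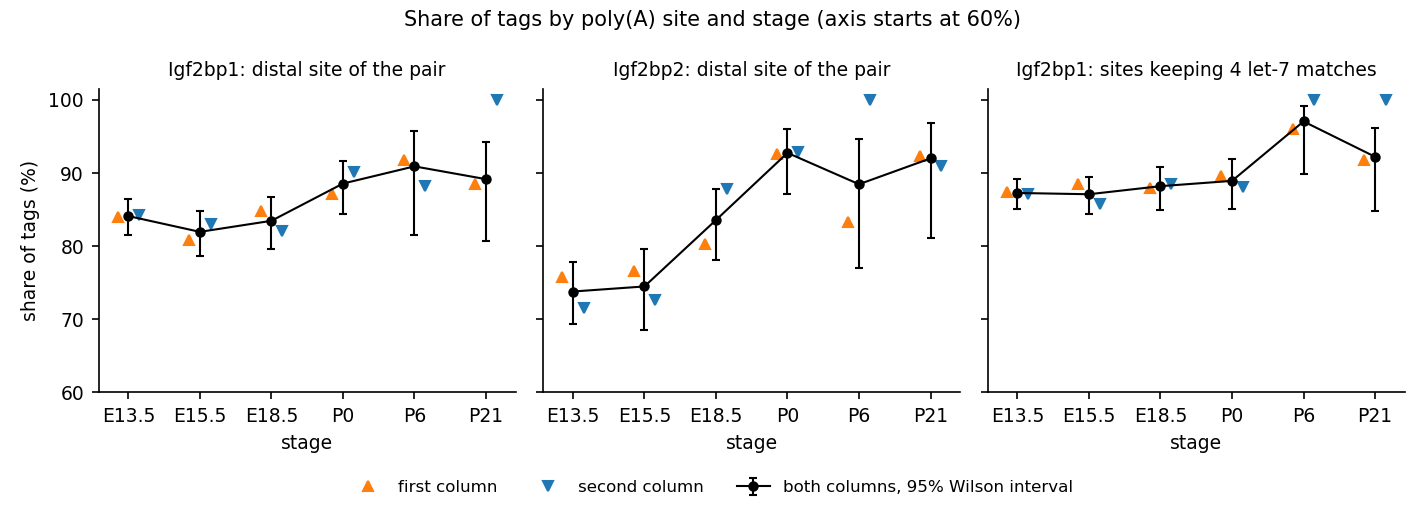
Share of tags (y axis, percent, axis from 60%) by stage (x axis) at the distal site of the Igf2bp1 pair, at the distal site of the Igf2bp2 pair and at the Igf2bp1 sites that keep all 4 let-7 matches, with both columns added and 95% Wilson intervals in black and the columns in colour. The Igf2bp2 share stands at 73.8% and 74.5% at the first 2 stages and at 92.0% at P21.

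The poly(A) signal AATAAA was searched on the transcript strand in the 40 bases before each site. It preceded 8 of the 11 sites of the 6 genes. The exceptions were the second Igf2bp1 site, the distal Igf2bp2 site and the minor Igf2bp3 site, which held neither AATAAA nor ATTAAA. Among 19401 sites in annotated 3′ UTRs, 57.1% held AATAAA, 17.1% only ATTAAA and 25.8% neither. In Igf2bp2 the minor proximal site had AATAAA, and the major distal site, with 79.8% of tags, had neither AATAAA nor ATTAAA. Other variants of the signal were not searched. The proximal signal is visible in the Igf2bp2 sequence above as the aataaa that ends 2 bases before the let-7 match.

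Other genes of the pathway were tested with edgeR's quasi-likelihood test for a linear trend over stage order, with Benjamini-Hochberg adjustment over all 14494 genes. Fitted changes are log2 changes from E13.5 to P21. Of all genes tested, 13.1% fell and 17% rose, with a median change of -0.02. The 5 lists were set up with results of these data known, so their counts are a description.

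Among genes that make, modify or act with let-7, 4 of 20 tested fell, 2 rose and 14 did not pass, with a median change of -0.27. Trim71, a ubiquitin ligase of early embryos and a known let-7 target whose 3′ UTR also held 4 matches, had 25.5, 12.4, 5.24, 4.72, 1.73 and 2.47 CPM over the 6 stages and fell (change -3.69 ± 0.60, SE, adjusted p = 0.00634 in edgeR). The call was lost without the E13.5 library and with days after conception in place of stage order. Trim25, a cofactor of Lin28a in let-7 decay, ran the other way, with 8.49, 13.7, 18.1, 34.6, 63.3 and 63.0 CPM (3.17 ± 0.36, edgeR adjusted p = 0.00287). Ago3, an Argonaute protein that carries microRNAs, also rose, at 68.2 CPM at P21 against 26.0 CPM at E13.5 (1.14 ± 0.29, edgeR adjusted p = 0.0260), a call lost without E13.5 or P21. The other Argonautes did not follow Ago3. Ago1 fell, at 109 CPM at P21 against 227 CPM at E13.5 (-0.93 ± 0.21, edgeR adjusted p = 0.0165, lost without E13.5, E15.5 or P21). Ago2 had 113 CPM at P21 and 174 CPM at E13.5 (-0.64 ± 0.20, edgeR adjusted p = 0.0482), a call lost in 10 of the 12 alternatives, and Ago4 did not pass (0.90 ± 0.40). Over the list, 1 gene fell without E13.5 and 2 without E15.5 or without P21. The processing enzymes Drosha and Dicer1 did not pass, with changes of -0.26 and -0.30.

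Lin28a, the paralog of Lin28b, was named after its values were seen. It had 9.31, 2.11, 0.436, 0.629, 3.20 and 3.01 CPM over the 6 stages. It did not pass (change -1.33 ± 1.19, edgeR adjusted p = 0.424) and lay below the floor at E18.5 and P0. Its lowest levels were at E18.5 and P0, while the lowest of Lin28b were at P6 and P21.

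Of the 5 genes that host let-7 loci, 2 had a site that passed the filter. Huwe1, a ubiquitin ligase gene that hosts let-7 loci of the X chromosome, fell to 114 CPM at P21, against 207 CPM at E13.5 (-0.90 ± 0.16, edgeR adjusted p = 0.00758), a call lost without P21. Wdr82 had 187 CPM at P21 and 250.3 CPM at E13.5 (-0.34 ± 0.18) and did not pass. PA-seq does not capture mature microRNAs, so the level of let-7 itself was not measured.

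Among 30 other reported or predicted let-7 targets, 16 fell, 1 rose and 13 did not pass, with a median change of -1.33. Without E13.5 or without P21, 10 fell. Of the 30 genes, 21 held a let-7 match in the 3′ UTR searched. Dusp9, a phosphatase of MAP kinases with 0 matches there, had 51.8, 16.6, 8.29, 5.04, 2.96 and 1.37 CPM (-5.02 ± 0.47, edgeR adjusted p = 0.00242). Fign, a microtubule-severing enzyme, had 7.13 CPM at P21 and 74.0 CPM at E13.5 (-3.77 ± 0.53), and Cdc25a, a phosphatase that drives cell cycle entry, had 17.8 and 144 CPM (-2.87 ± 0.45). Both fell (edgeR adjusted p = 0.00447 for Fign and 0.00555 for Cdc25a), with no call lost under any alternative run. The list holds cell cycle genes, and the dividing-cell markers fell over the same stages. Their part in it was not tested.

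Nr6a1, a nuclear receptor of the embryo, was the only one of these targets that rose, and it was named after its values were seen. Its 3′ UTR of 4457 bases held 8 let-7 matches, the most of the 24 genes outside the 6 that were tested and held at least 3. Nr6a1 had 8.76, 12.4, 15.1, 17.9, 43.4 and 29.9 CPM over the 6 stages (2.16 ± 0.48, edgeR adjusted p = 0.0160). Whether the transcripts counted keep these matches was not tested. The call was lost without E13.5 and with days after conception in place of stage order. Hic2, a transcriptional repressor with 4 matches, ran in the opposite direction, at 24.9 CPM at P21 against 88.7 CPM at E13.5 (-1.76 ± 0.31, edgeR adjusted p = 0.00807), and its call was lost under the same 2 alternatives.

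Of 17 proteins with an HMG box or nucleosome-binding domain, which share with the HMGA proteins the binding of bent DNA or of nucleosomes, 6 fell, 0 rose and 11 did not pass, with a median of -0.93. The count of 6 fell to 1 without E13.5, without P6 or without P21, and to 3 in the second columns alone. Hmgb2, a chromatin protein of dividing cells, had 3.01 CPM at P21 and 25.5 CPM at E13.5 (-2.80 ± 0.88, edgeR adjusted p = 0.0482). Lef1 and Tcf7l1, transcription factors of Wnt signalling, had 4.66 and 24.9 CPM at P21 against 26.8 and 107 CPM at E13.5 (-2.27 ± 0.64 and -2.15 ± 0.45, edgeR adjusted p = 0.0345 and 0.0134). The calls of Hmgb2, Lef1 and Tcf7l1 were all lost without E13.5, and with days after conception. Those of Hmgb2 and Lef1 were also lost in the second columns alone and without P6 or P21, that of Hmgb2 in the first columns alone and without P0, and that of Lef1 without E18.5.

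Of 26 partners and targets of the IGF2BP proteins and genes of the IGF2 axis, 5 fell, 2 rose and 19 did not pass, with a median of -0.43. Gap43, a growth cone protein whose mRNA is carried by IGF2BP1, had 365, 309, 207, 192, 119 and 73.2 CPM (-2.25 ± 0.23, edgeR adjusted p = 0.00260). Igfbp5, a secreted IGF-binding protein, had 67.4 CPM at P21 and 301 CPM at E13.5 (-2.21 ± 0.35, edgeR adjusted p = 0.00581), a call lost with days after conception. Cd44, an adhesion receptor, rose to 21.4 CPM at P21, against 3.29 CPM at E13.5 (2.15 ± 0.68, edgeR adjusted p = 0.0478), a call lost in either column alone and without E13.5, E15.5, E18.5 or P21. Without P21 its change was 0.54 (edgeR adjusted p = 0.609), so the rise rested on that library. Btrc, a ubiquitin ligase subunit, was the other that rose (1.03 ± 0.25, edgeR adjusted p = 0.0215, lost with days after conception and without E15.5, P6 or P21). Without P21, 3 genes of the list fell and 0 rose, and without E15.5 0 rose. Igf2 itself did not pass, with 77.0 CPM at P21 and 166 CPM at E13.5 (-0.64 ± 0.33), and neither did Actb, a localised mRNA bound by IGF2BP1 (0.62 ± 0.25).

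**Figure D5:**
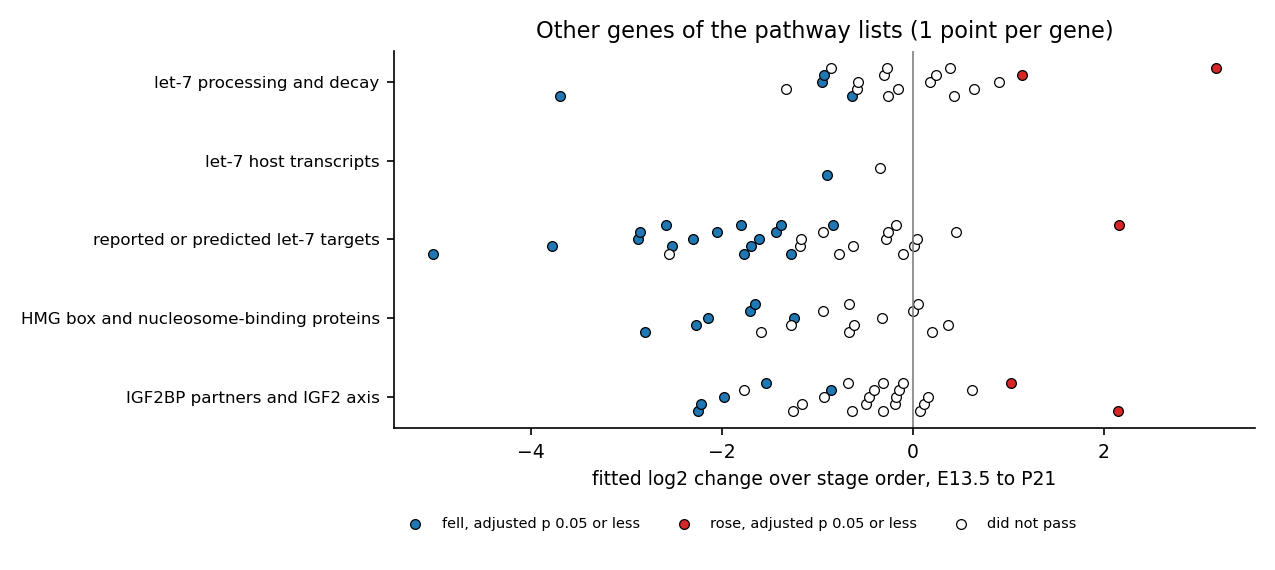
Fitted log2 change over stage order from E13.5 to P21 (x axis) of each tested gene of the 5 pathway lists (rows), with genes that fell in blue, genes that rose in red and genes that did not pass in white. In the row of let-7 targets 16 of 30 genes are blue, and Nr6a1 at 2.16 is the only red one.

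The genes with the profile most like each of the 6 were found by the root mean square distance of centred log2 CPM over the 6 libraries, among 9780 genes with a mean of at least 20 CPM. Fgf15, a growth factor of retinal progenitors, lay nearest to Igf2bp1 (distance 0.153), followed by Atoh8 and Fignl1. Fgf15 had 487, 409, 261, 247, 42.4 and 57.3 CPM and shared with Igf2bp1 the drop at P6. AU020206 (0.126), Irx3 and Grasp lay nearest to Igf2bp2, and Serinc2 (0.148), Cdc25a and Efna4 to Igf2bp3.

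Ccnd2, a cyclin of the G1 phase, lay nearest to Lin28b (0.303), followed by Tcf7l1 and Plk3. It had 132, 70.7, 39.9, 36.5, 18.98 and 18.9 CPM. Blm, a DNA helicase, lay nearest to Hmga1 (0.184), followed by 9430038I01Rik and Tbx3, and Gm266 (0.327), Sdc1 and Inava lay nearest to Hmga2. Among the 6 genes themselves, Igf2bp2 and Igf2bp3 were the closest pair (0.349) and Hmga1 and Hmga2 the most distant (1.09). The distances describe 6 libraries and carry no test.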

How the data were processed

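PA-seq libraries of the retina were made with an anchored oligo(dT) primer and 16 cycles of PCR, strand-specifically, per the labels' protocols. The submitters' processing notes name BWA 0.7.5a-r405 as a tool and mm10 as the genome build. The deposited values are counts of tags per poly(A) site in 12 columns, 2 for each of the 6 stages, per the file headers, with 1 enrichment score per site, which was not used here. How sites were clustered, and what the first and second column of a stage stand for, is not given in the sources used here. The columns were added and not treated as replicates. The 6 genes and all lists were chosen with earlier results of these data known.

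Sites were given to GENCODE M21 genes by their 3′ edge, in an exon, within 1000 bases downstream or in an intron, in that order. CPM values use TMM library sizes of edgeR 4.0.16 in R 4.3.3. Trends over stage order (1 linear term, 4 residual degrees of freedom) were tested with edgeR's quasi-likelihood F test for genes that reached a CPM of 1 in 2 or more libraries, and site pairs (each site at least 5% of tags, mean of at least 20 tags per library) with diffSpliceDGE, with Benjamini-Hochberg adjusted p of 0.05 or less called. With 1 sample per stage, p-values measure the spread around a straight line. SE is the size of the change over the root of its F statistic. Ratios of counts have exact binomial intervals and shares Wilson intervals, both at 95%. Counts under 3 in a ratio of P21 to E13.5 were set to 3.

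From each pathway list, up to 3 genes with the largest change past the threshold were named, filled up by mean CPM, and further named genes are marked in the text or illustrate a count. Drosha, Dicer1, Ago1, Ago2, Ago4, Btrc, Hic2, Igf2 and Actb were also chosen after their values were seen. Near copies were searched with BLAST 2.17.0 in annotated transcripts. DESeq2 1.42.0 gave alternative size factors and tests. Both fits were tried on simulated counts with 200 genes or pairs changed along a straight line and 1 fixed dispersion of 0.05. The trend fit over 14494 genes recovered 80% of genes changed by 2 on the log2 scale and 100% of those changed by 4, with 8 false calls. The site test over 6066 pairs recovered 51.5% of pairs changed by 2, with 17 false calls. The simulation held no stepwise profiles and no differences between columns or single libraries, so these rates need not hold for the real data.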

Additional observations from a re-analysis of the deposited data

Results flagged for a closer look

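Signal appeared on the strand opposite to Igf2bp3, at 2 poly(A) sites inside the gene. Neither was given to a gene with 1000 bases downstream allowed, so the main comparisons did not use them. The same strand held a Malsu1 site outside Igf2bp3, at 49084684 to 49084704, with 220, 228, 294, 163, 231 and 184 tags over the 6 stages. The nearer of the 2 sites lay less than 10000 bases past that of Malsu1. The alternative with 10000 bases downstream may therefore have counted its tags for Malsu1. The site at 49092463 to 49092477 of chromosome 6 (mm10, plus strand) had 4, 9, 10, 3, 1 and 17 tags over the 6 stages. The site at 49104382 to 49104410 had 6, 4, 8, 18, 13 and 34 tags. Both were highest at P21, where Igf2bp3 itself was lowest, and both were above the floor of 3 tags at that stage. The source of these tags was not tested.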

How the results depend on the processing

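All 6 genes kept a P21 to E13.5 ratio below 0 under every alternative that gave a value. The log2 ratio moved beyond its counting interval only with the columns and the flank. It was -4.22 for Lin28b, -2.43 for Igf2bp1, -2.33 for Igf2bp2 and -2.33 for Igf2bp3 in the first columns alone, and -6.63 for Igf2bp1, -4.23 for Igf2bp2 and -6.93 for Igf2bp3 in the second. With 0 bases downstream it was -2.83 for Igf2bp3, of which only the minor site is then left. That site had 22 tags at E13.5 and 0 at P21, set to the floor of 3, so the value is set by the floor. Hmga1 and Hmga2 then had no site, since theirs lay 1 and 2 bases past the annotated end. Over the pathway lists, 3 genes rose with days after conception, against 5 with stage order. Leaving out 1 stage gave 2 to 5 rising and 16 to 38 falling list genes, and 806 to 2665 rising and 485 to 2413 falling genes of all tested. Pairs moving towards the distal site numbered 36 in the first columns and 152 with 10000 bases downstream, against 94, and pairs moving towards the proximal site 21 with sites of at least 10% of tags and 12 in the first columns, against 33. Without 1 stage these counts ran from 0 to 100 and from 0 to 28, with 0 of either kind without E13.5. The log2 change in the ratio of distal to proximal tags ran from 0.78 to 1.03 for Igf2bp1 and from 1.96 to 2.53 for Igf2bp2 without 1 stage, and neither passed in any alternative. The cause of these shifts was not tested. No paired analysis was possible because each stage had 1 sample, so that replicate numbers pair nothing. Depth limits the P21 values of Hmga2, from 7 tags, and Hmga1, from 10.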

Other observations

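Genes outside the 6 were also grouped by the number of let-7 seed matches in their 3′ UTR. Of 11583 tested genes with 0 matches, 13.6% fell and 16.2% rose with stage order (edgeR), of 1222 with 1 match 14.2% fell and 19.7% rose, of 138 with 2 matches 20.3% fell and 13.8% rose, and of 24 with at least 3 matches 25.0% fell and 16.7% rose. The median 3′ UTR length was 1107, 2274.5, 3622.5 and 5007.5 bases in these classes, so the number of matches and the length move together. Genes with at least 3 matches went both ways. Fign, Trim71, Zc3hav1l, Hic2, D10Wsu102e and Ago2 fell, and Mcf2l, Zkscan2, Nr6a1 and Pde6h rose. The call of Ago2 was lost in 10 of 12 alternatives. The 4 matches of D10Wsu102e lay in an annotated 3′ UTR of 122583 bases. Whether the transcripts counted for these genes keep the matches was not tested. Pde6h, the inhibitory subunit of the cone phosphodiesterase, had 3 matches and a change of 3.97 ± 0.36 (edgeR adjusted p = 0.00233).

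A poly(A) site upstream of Igf2bp1 on the same strand, given to the gene model Gm37179 (chromosome 11, 96006331 to 96006346, mm10), had 30, 15, 14, 11, 1 and 0 tags over the 6 stages. It was highest at E13.5 and below the floor of 3 tags at P6 and P21.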
